A study of Mus musculus with 34 samples.

Results

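Bone marrow monocytes cultured with the supernatant of MC38, a mouse colon adenocarcinoma line, were compared with monocytes from control culture. The comparison used 7 of the 34 libraries of the series, chosen by their titles: 3 after MC38 supernatant and 4 from control culture. A further 3 libraries, from cells given the supernatant of LLC, a Lewis lung carcinoma line, served as a second stimulus. The labels describe the MC38 supernatant cells as Ly6C+ CD88+ Sca1+ monocytes, the LLC supernatant cells as Ly6C+ CD88+ Sca1- monocytes and the control cells as untreated Ly6C+ monocytes, all from the C57/Bl6 strain. From mice, 4 libraries of Ly6C+ CD88+ Sca1+ monocytes (TuMon1) of MC38 tumors and 4 of Ly6C+ spleen monocytes of mice with that tumor were set beside the culture.

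The sources used here do not give the time in culture, the dilution of the supernatant, the medium of the control cells or the age of the mice. The labels do not say whether replicates were separate cultures, so the p-values measure the spread between these libraries only. The study sorted tumor monocyte subsets by flow cytometry, and the sources used here do not say whether the cultured cells were sorted on CD88 or Sca1 too. Effects of a supernatant and of such a sort cannot be told apart, neither against control cells nor between MC38 (Sca1+) and LLC (Sca1-) cells. RNA of each sample (100 ng) was made into strand-specific libraries of polyadenylated RNA.

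Ly6C-high monocytes leave the bone marrow, enter inflamed tissue and tumors, and can mature there into macrophages. Type I interferons signal through the receptor subunits Ifnar1 and Ifnar2 and the kinases Jak1 and Tyk2 to a complex with Stat2 and Irf9, which binds the interferon-stimulated response element. The targets are antiviral effectors, amplifiers such as Irf7, and brakes such as Usp18. Interferon gamma acts mainly on gamma-activated sites and drives immunity-related GTPases, guanylate binding proteins and, through Ciita, MHC class II. Sca1, the antigen in the MC38 label, is the protein of Ly6a, a gene that interferons induce in many mouse cells.

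The promoters of 4 antiviral genes that rose after MC38 supernatant are shown because they carry the core of the response element, spelled as GAAA, any 2 bases and GAAA again, and searched on both strands. Each stretch lies upstream of the gene's start and is given 5′ to 3′ on the gene's strand (RefSeq, build GRCm38.p6), with the matches in capitals.
Isg15, chr4:156200860-156200911, minus strand: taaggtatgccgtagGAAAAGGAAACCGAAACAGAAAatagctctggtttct
Ifit1, chr19:34640770-34640828, plus strand: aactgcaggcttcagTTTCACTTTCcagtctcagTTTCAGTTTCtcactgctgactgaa
Ifit3, chr19:34583358-34583431, plus strand: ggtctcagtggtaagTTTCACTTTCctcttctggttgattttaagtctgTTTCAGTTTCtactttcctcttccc
Rsad2, chr12:26456548-26456587, minus strand: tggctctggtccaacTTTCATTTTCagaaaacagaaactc
Isg15 holds 3 overlapping matches between 57 and 78 bases before its start. Ifit1 and Ifit3 hold 2 each, and Rsad2 holds 1, between 111 and 120 bases before its start. No match in these 4 overlaps a match to any other motif searched. Among the 54 tested members of the type I interferon list described below, 41 had a promoter sequence (250 bases before to 50 after the start), and 22 of these (53.7%) held the core. It was found in 11 of 17 promoters of interferon gamma linked genes (64.7%), in 5 of 20 of MHC class I genes (25%) and in 1 of 40 of cell cycle genes (2.5%), beside 1079 of 27025 promoters of the genome (3.99%). The gamma-activated site, TTC and GAA with any 3 bases between, was in 8 of 41, 8 of 17, 2 of 20 and 2 of 40 of the same promoters and in 9.55% of all promoters. A match is a string of letters, not a measured binding site.

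The antigens of the labels were read first. Ly6a stood at 1557, 1628 and 1344 CPM (counts scaled to the size of each library) after MC38 supernatant and 11.9, 11.5 and 11.2 CPM with that of LLC, against 9.0, 8.13, 8.65 and 12.2 CPM in control cells. C5ar1, which encodes CD88, the receptor for complement C5a, was at 666, 669 and 562 CPM after MC38 supernatant, 639, 637 and 601 CPM with that of LLC and 14.9, 11.2, 15.2 and 14 CPM in control cells. Both genes were high in each MC38 supernatant library and low in each control library, with no overlap, as was the case for 65.8% of all genes tested. Between these groups they differed by 7.31 ± 0.15 and 5.51 ± 0.11 on the log2 scale (± SE), and no test is given because the label of 1 group names these antigens and that of the other does not. C5ar1 was high with either supernatant, and Ly6a was high with that of MC38 and low with that of LLC, as the labels name them. Ly6c2, the main gene of the Ly6C antigen, was at 1338, 1393 and 1204 CPM after MC38 supernatant, 14.5, 14.9 and 12.2 CPM with that of LLC and 1884, 1520.5, 1887 and 1885 CPM in control cells. Ly6c1 shares reads with Ly6c2, so both are uncertain. After MC38 supernatant Ly6c1 was at 38.2, 33.1 and 37.5 CPM, against 24.8, 24, 24.4 and 28.5 CPM in control cells. With LLC supernatant it was at 0.173, 0.277 and 0.171 CPM. The label of the LLC supernatant cells also names Ly6C, yet both Ly6C genes were low in them. On GRCm38, Ly6a (Entrez Gene ID 110454) lies at chromosome 15, positions 74994877 to 74998031, and C5ar1 (12273) at chromosome 7, positions 16246743 to 16259540.

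Library totals lay between 13047724 and 26043821 estimated counts. Of the myeloid genes Ptprc, Spi1, Csf1r, Itgam, Lyz2, Cd68, Fcer1g and Tyrobp, the lowest value in any of the 7 libraries was 197 CPM, that of Spi1. MC38 supernatant replicate 3 and control culture replicate 2 also held transcripts of other tissues. In MC38 supernatant replicate 3 the 14 connective tissue markers summed to 4112 CPM, against 2.22 and 3.26 CPM in the other MC38 supernatant libraries, with Col1a1 at 1014, Sparc at 777 and the astrocyte gene Gfap at 279 CPM. Control culture replicate 2 had 244.6 CPM of 11 muscle markers, 215.4 CPM of connective tissue markers and 100.9 CPM of 9 epithelial markers, against at most 6.66, 9.92 and 0.892 CPM in the other controls. Most of its muscle sum came from the actin genes of that list, at 165 and 72.7 CPM, and each other muscle marker reached at most 2.97 CPM. MC38 supernatant replicate 3 and control culture replicate 2 had 16908 and 15521 genes with counts, where the other 5 had 14054 to 14813. Fits without both are given as values over 8 libraries (5 of the 7 and the 3 of LLC supernatant). Markers of T and NK cells (12 of 14 found among the deposited genes) summed to at most 15.6 CPM in any of the 7 libraries. Those of fat cells summed to at most 0.525 CPM.

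**Figure D1:**
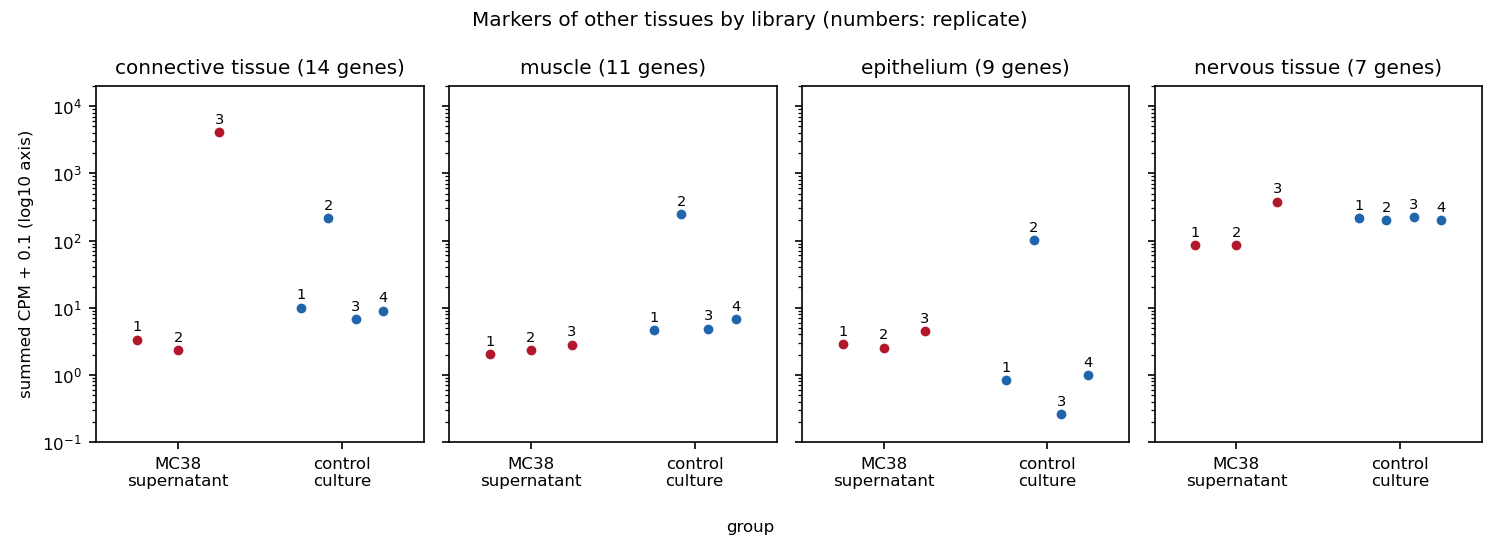
Summed CPM of marker lists for connective tissue, muscle, epithelium and nervous tissue (log10 axis, each CPM plus 0.1) in the 3 MC38 supernatant libraries (left) and the 4 control libraries (right), each point a library labelled by its replicate number. MC38 supernatant replicate 3 stands apart for connective and nervous tissue and control culture replicate 2 for connective tissue, muscle and epithelium.

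Most genes of the cultured cells differed between the groups. Of 12603 genes tested with edgeR's quasi-likelihood test (Benjamini-Hochberg adjusted p under 0.05), 8552 were called (67.9%), 4460 higher after MC38 supernatant (35.4%) and 4092 lower (32.5%). A change of at least 2-fold was called upward in 2146 genes (17%) and downward in 1788 (14.2%). The median log2 difference over all genes tested was 0.05. Over 8 libraries 9730 of 12622 genes were called (77.1%), 5046 higher after MC38 supernatant (40%) and 4684 lower (37.1%), and 8298 of the 8552 genes were among them with the same direction. The 4 genes called in opposite directions were Col4a1, Pdgfrb, Sparc and Tagln, genes of connective tissue and vessel walls. A further 1383 genes were called only over 8 libraries. Among those of them without overlap between the libraries of the groups, the largest fitted change was that of Grb14, an adaptor that restrains insulin receptor signalling. It was at 0, 0 and 2.90 CPM after MC38 supernatant and 9.37, 6.08, 7.92 and 10.2 CPM in control cells. Dusp4, a phosphatase of MAP kinases, was at 19.1, 19.2 and 17.3 CPM after MC38 supernatant and 0.0366, 9.33, 0 and 0 CPM in control cells. Igf2bp2, which binds RNA and is known from embryonic tissue and tumors, was at 185, 185 and 162 CPM after MC38 supernatant and 0.402, 50.8, 0.402 and 0.892 CPM in control cells (3.84, or 8.45 over 8 libraries). Slc6a8, the creatine transporter, was at 118, 115 and 113 CPM after MC38 supernatant and 0.22, 36.6, 0.241 and 0.262 CPM in control cells (3.74, or 8.93 over 8 libraries). In Dusp4, Igf2bp2 and Slc6a8 the second control library alone held more than 1 CPM, and in Grb14 the third MC38 supernatant library alone held any count. LLC supernatant against the same control libraries gave 8615 calls (68.4%), and MC38 differed from LLC supernatant in 5055 genes (40.1%), 2723 higher (21.6%) and 2332 lower (18.5%). The balance turned with RLE scaling, with 2303 higher and 2687 lower. Without the 2 libraries that hold transcripts of other tissues, 7424 genes differed between the supernatants (58.8%), 3849 higher after MC38 supernatant (30.5%) and 3575 lower (28.3%). Each gene said below to rise or fall has an adjusted p of at most 0.049 in that test. Counts of list members below stand beside 35.4% of all genes higher and 32.5% lower against control. Between the supernatants, the shares of all genes were 21.6% higher and 18.5% lower after MC38 supernatant. In bulk RNA, a change in the share of cells of a type and a change in RNA per cell cannot be told apart.

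The 12 largest rises held 5 chemokine genes, the 3 chains of C1q and 4 other genes. Ccl8, a chemokine for monocytes, reached 706, 709.6 and 604 CPM after MC38 supernatant, against 0.0732, 0.212, 0.0402 and 0.0525 CPM in control cells (log2 difference 12.90 ± 0.21). Ccl7 and Ccl12, which attract monocytes through Ccr2, rose by 12.58 ± 0.23 and 11.77 ± 0.37. Arg1, the arginine-degrading enzyme arginase 1, was at 2699, 2690.4 and 2298 CPM after MC38 supernatant and 0.402, 1.63, 0.804 and 0.315 CPM in control cells. These 4 genes were at or below 1.63 CPM in each control library and at or above 336 CPM in each MC38 supernatant library. The 12 largest rises also included the platelet chemokine Pf4 (11.71), at 1893, 1994 and 1683 CPM after MC38 supernatant and 0.366, 1.20, 0.402 and 0.472 CPM in control cells, the C1q chains C1qa, C1qb and C1qc (11.40 to 11.67), Cxcl3 (11.26) and the macrophage elastase Mmp12 (11.04). The other megakaryocyte and red cell markers, 8 genes, reached at most 0.745 CPM after MC38 supernatant, and Gp9 and the globin gene Hbb-bs were at 0 there. The remaining 2 of the 12 were Oit3 and Raet1d, a ligand of the receptor NKG2D, which had no count in any control library. They were at least 444-fold and 422-fold higher, against a floor of 3 counts over the control group that covers counting error only.

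Of the 12 largest falls, 2 were of genes with no count after MC38 supernatant. Ear2, an eosinophil-associated ribonuclease, was at 61.4, 45.9, 61.8 and 50.7 CPM in control cells and had no count after MC38 supernatant, so it was at least 1289-fold lower (the Ear family shares reads, and Ear2 is uncertain). Upb1, a pyrimidine-degrading enzyme, also had no count after MC38 supernatant and was at least 446-fold lower. Mpo, the myeloperoxidase of neutrophil granules, was at 3.12, 3.08 and 1.49 CPM after MC38 supernatant and 901, 751, 912 and 866 CPM in control cells, and Btla, an inhibitory receptor, fell by 8.32 ± 0.24. Cd209a, a lectin of monocyte-derived dendritic cells, had 1 count over the 3 MC38 supernatant libraries and was 1168 times higher in control cells (95% counting interval 209 to 46163). Rem1 had 2 counts there and was 724 times higher in control cells (interval 200.3 to 5987). Smim5, Cyp2ab1, Adgre4, Ctsg, Nkg7 and Klrb1f, with log2 differences between -8.39 and -7.39, complete the 12. Nkg7, a granule protein of cytotoxic cells, was at 0.0453, 0.136 and 0.0414 CPM after MC38 supernatant and 14.7, 10.5, 14.8 and 13.3 CPM in control cells. Of the other T and NK cell markers found among the deposited genes, Cd3g was at 0 in all 7 libraries and none exceeded 0.769 CPM.

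Of the genes that changed at least 2-fold without overlap between the groups, Ctsb was the most abundant that rose and Lyz2 the most abundant that fell. The lysosomal proteases Ctsb and Ctsd were at 15335 ± 1055 and 7161 ± 228 CPM after MC38 supernatant, against 1204 ± 96.8 and 346 ± 19.9 CPM in control cells (SD, n = 3 and 4). Spp1, which encodes osteopontin, was at 12003, 11382 and 10823 CPM after MC38 supernatant and 9.95, 10.8, 8.16 and 7.76 CPM in control cells. The ferritin genes Ftl1 and Fth1 rose by 1.95 ± 0.09 and 2.89 ± 0.51, and Fth1 stood at 1777 CPM in control culture replicate 2 and at 449.6 to 464 CPM in the other controls. Lyz2, lysozyme, fell to 3112 ± 76.7 CPM after MC38 supernatant, against 15169 ± 1257 CPM in control cells. Fn1, fibronectin, was at 200.3, 222 and 2736 CPM after MC38 supernatant and 11343, 11049, 11365 and 10054 CPM in control cells, a log2 difference of -3.38 that was -5.67 over 8 libraries. The high value is that of replicate 3, the library with connective tissue transcripts. COX1, a mitochondrial gene of the respiratory chain, was at 2426, 1898 and 3335 CPM after MC38 supernatant and 5514, 4389, 5336 and 6063 CPM in control cells (-1.06 ± 0.18). Flna and Actg1, genes of the actin cytoskeleton, fell by 2.03 ± 0.11 and 1.25 ± 0.07.

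Nearly every gene of the type I interferon response was higher after MC38 supernatant. Of 54 members tested, 53 rose and 0 fell (35.4% of all genes tested rose), with a median log2 difference of 2.01 beside 0.05 over all genes. Irf9 was the member that did not pass (0.14 ± 0.07, adjusted p = 0.118). After LLC supernatant, set beside the same controls, 22 of the 54 were higher (32.3% of all genes) and 20 lower (36.1%). Tested directly against LLC supernatant, 54 of 54 were higher after MC38 supernatant (21.6% of all genes), in cells that also differ in their Sca1 label.

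Antiviral effectors showed large rises. Ifi44 was at 91.2, 74.4 and 61.4 CPM after MC38 supernatant and 0.549, 0.353, 0.483 and 0.315 CPM in control cells (7.41 ± 0.24). Isg15, a ubiquitin-like modifier, was at 251, 265 and 232 CPM after MC38 supernatant, 24, 19.0 and 21.2 CPM with that of LLC and 10.5, 9.40, 12.2 and 8.86 CPM in control cells (4.60 ± 0.12 for MC38 supernatant minus control). Ifit1, which binds foreign RNA and whose promoter is shown above, was at 200.2, 188 and 164 CPM after MC38 supernatant and 10.4, 8.70, 10.3 and 9.97 CPM in control cells (4.22 ± 0.09, adjusted p = 1.05e-10). In these 3 genes the MC38 supernatant libraries all lay far above the control libraries, and the replicates of each group lay close together. Ifit3 (4.11), Rsad2, which encodes viperin (4.53), Oasl1 (5.16), Ifit1bl1 (4.81) and Bst2, the tether of budding virions (4.03), rose with them.

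Signalling genes moved in both directions. Irf7, the amplifier of the response, was at 1377, 1416 and 1190.2 CPM after MC38 supernatant and 117, 89.9, 117 and 120.3 CPM in control cells (3.58 ± 0.11), while Irf3, which acts before it, fell by 0.50 ± 0.09. Stat2 rose by 1.87 ± 0.08. Usp18, the feedback inhibitor at the receptor, was at 189 ± 14.3 CPM after MC38 supernatant and 23.3 ± 3.13 CPM in control cells. Of 19 genes of interferon production and reception, 11 rose and 5 fell, beside 35.4% and 32.5% of all genes tested. Ifnb1, interferon beta, had 37 counts over the MC38 supernatant libraries (0.588, 0.588 and 0.455 CPM), 0, 0 and 0 CPM with LLC supernatant and none in control cells, at least 15.4-fold higher after MC38 supernatant than the floor of 3 counts. Tlr3, Tlr7 and Tlr4, sensors of nucleic acids and endotoxin, rose by 5.26 ± 0.27, 2.92 ± 0.13 and 3.33 ± 0.12. The receptor subunit Ifnar1 rose by 0.80 ± 0.09, and Tyk2 and the interferon gamma receptor gene Ifngr1 fell by 1.08 ± 0.07 and 0.89 ± 0.10.

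**Figure D2:**
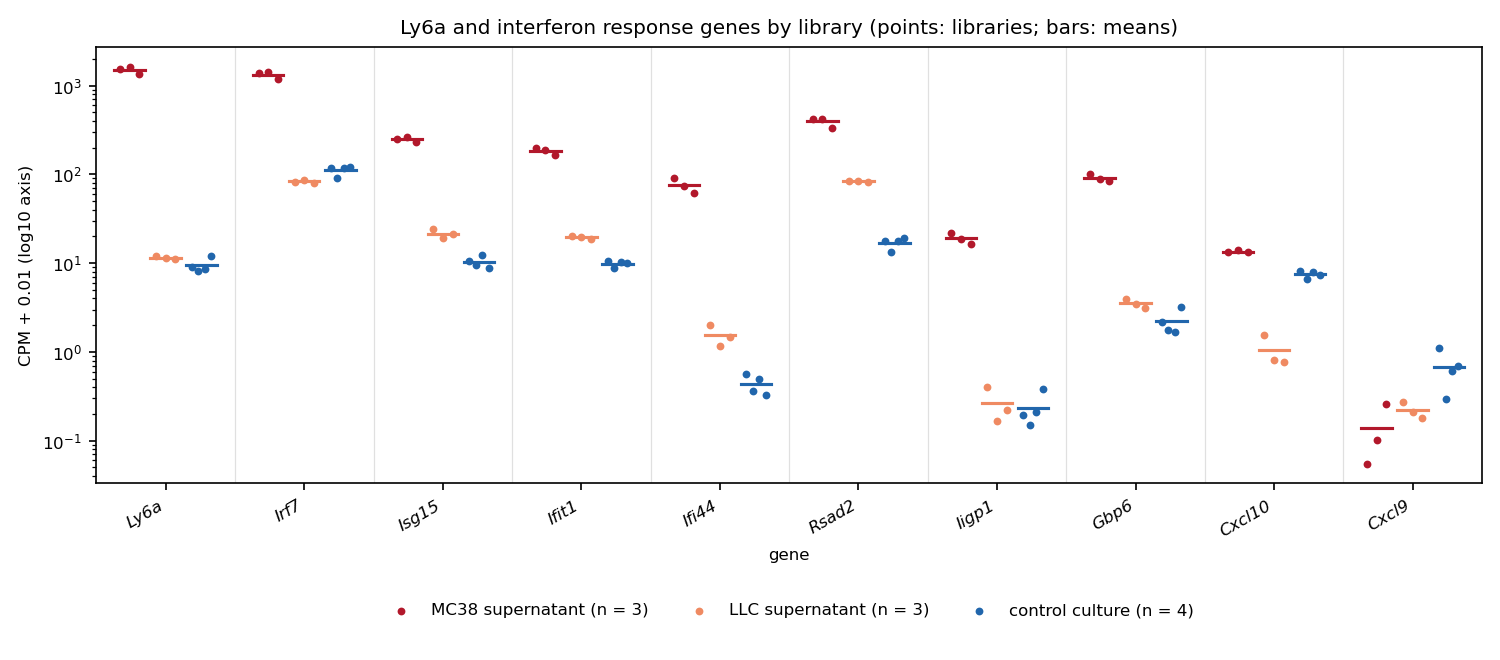
CPM (log10 axis, each CPM plus 0.01) of Ly6 and interferon response genes in single libraries after MC38 supernatant (left), after LLC supernatant (middle) and in control culture (right), with bars at the group means. The MC38 supernatant libraries lie above all control libraries for Ly6a, Irf7, Isg15, Ifit1, Ifi44, Rsad2, Iigp1 and Gbp6, and Cxcl9 lies below.

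Most genes linked to interferon gamma rose. Of 27 tested, 22 rose and 3 fell (median 2.07). The GTPases that attack vacuoles of pathogens were among the rises: Iigp1 was at 21.8, 18.7 and 16.4 CPM after MC38 supernatant and 0.183, 0.141, 0.201 and 0.367 CPM in control cells, and Gbp6 at 99.8, 88.9 and 85.0 CPM after MC38 supernatant and 2.16, 1.77, 1.65 and 3.20 CPM in control cells. Tgtp2, Igtp and Irgm1 rose by 3.66 ± 0.10, 2.25 ± 0.09 and 2.07 ± 0.08, Cd274, which encodes PD-L1, by 5.61 ± 0.13, and Il18bp, the decoy of interleukin 18, by 4.94 ± 0.13. Nos2, inducible nitric oxide synthase, had no count in control cells and 7.02, 7.87 and 4.96 CPM after MC38 supernatant, at least 187-fold higher. Other standard targets fell from low values or changed less. Cxcl9, a T cell attractant induced mainly by interferon gamma, was at 0.0453, 0.0905 and 0.248 CPM after MC38 supernatant and 1.10, 0.283, 0.603 and 0.682 CPM in control cells (-2.34 ± 0.64, adjusted p = 0.00798), and this call was lost without MC38 supernatant replicate 1 or 2 (-1.92 and -2.14). Ido1, which degrades tryptophan, was at 0.136, 0.0905 and 0.124 CPM after MC38 supernatant and 0.622, 0.424, 0.684 and 0.787 CPM in control cells. Cxcl10, which type I interferons also induce, was at 13.2, 13.9 and 13.2 CPM after MC38 supernatant and 8.16, 6.65, 7.92 and 7.40 CPM in control cells (0.83 ± 0.21). Irf1 was at 0.24 (adjusted p = 0.0244), a call lost without MC38 supernatant replicate 2 (0.19), and Gbp3 at -0.11 (adjusted p = 0.391).

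Most MHC class I genes rose, and MHC class II genes moved both ways. Of 25 MHC class I and peptide loading genes, 23 rose and 1 fell (median 0.94), beside 35.4% and 32.5% of all genes tested. Against LLC supernatant, 22 were higher and 1 lower (21.6% and 18.5% of all genes). B2m, the light chain, was at 4009 ± 292 CPM after MC38 supernatant and 1113 ± 132 CPM in control cells (1.85 ± 0.10). H2-K1 rose by 1.86 ± 0.10 and H2-D1 by 1.26 ± 0.09, while H2-Q6 (5.03 ± 0.21) and H2-Q7 (4.54 ± 0.24) rose more, although H2 genes share reads and single members are uncertain. Tap1, the peptide transporter, rose by 0.87 ± 0.09, and Psmb10 was at -0.07 without passing (adjusted p = 0.592). Of 11 MHC class II genes, 3 rose and 5 fell (median -0.60), beside the same 35.4% and 32.5% of all genes tested. H2-Aa was at 15.9, 16.6 and 14.2 CPM after MC38 supernatant and 15.3, 11.2, 16.0 and 13.8 CPM in control cells (0.14 ± 0.26, adjusted p = 0.649), and Ciita, the class II transactivator, at 2.04, 2.58 and 2.19 CPM after MC38 supernatant and 3.29, 4.03, 3.50 and 2.94 CPM in control cells. The peptide editor H2-DMa fell by 1.78 ± 0.09, and Ctss, the protease that trims the class II chaperone, rose by 2.67 ± 0.09.

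Genes of macrophage maturation rose together and genes of circulating monocytes fell. Of 30 macrophage genes tested, 30 rose (median 4.02), beside 29 higher and 1 lower after LLC supernatant. MC38 was above LLC supernatant in 9 and below it in 11, beside 21.6% and 18.5% of all genes tested. C1qa was at 363, 375 and 351 CPM after MC38 supernatant and 0.0366, 0.212, 0.201 and 0.105 CPM in control cells. Gpnmb, a glycoprotein of lysosome-rich macrophages, was at 7274, 7481 and 6424 CPM after MC38 supernatant, 15653, 15788 and 15332 CPM with that of LLC and 5.82, 8.70, 5.99 and 6.24 CPM in control cells. Both genes were low in each control library and high in each MC38 supernatant library. The transcription factor Maf, which directs macrophage maturation, rose by 6.76 ± 0.13. The receptors for dying cells Mertk (6.84) and Axl (3.27), the mannose receptor Mrc1 (6.48), Trem2 (3.64) and Adgre1, which encodes F4/80 (2.52), rose as well. Axl stood apart between supernatants, at 210.0 ± 31.9 CPM with MC38 and 10.4 ± 0.756 CPM with LLC supernatant (4.33 ± 0.15, adjusted p = 4.03e-08).

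Of 24 classical monocyte genes, 3 rose and 19 fell (median -1.47). Hp, haptoglobin, was at 20.0, 20.9 and 16.5 CPM after MC38 supernatant and 891, 724, 901 and 864 CPM in control cells (-5.47 ± 0.14). Chil3, a chitinase-like lectin, fell by 5.11 ± 0.12 and the monocyte factor Klf4 by 4.22 ± 0.21. Ccr2, the receptor that draws these cells from the marrow, was at 760.0, 655 and 497 CPM after MC38 supernatant and 1408, 1118, 1452 and 1443 CPM in control cells, a smaller fall (-1.09 ± 0.14). The rises were Thbs1, thrombospondin (5.44), Cd14 (2.98) and the interferon target Ifi27l2a (1.47). Of 19 genes of nonclassical, patrolling monocytes, 11 fell and 5 rose, beside 32.5% and 35.4% of all genes tested. Adgre4 (-7.96), Ace (-6.78), Spn (-4.30), Itgal (-3.48) and Cx3cr1 (-3.08) were lower, and the fatty acid transporter Cd36 (8.10) and the lipid carrier Fabp4 (6.83) higher.

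**Figure D3:**
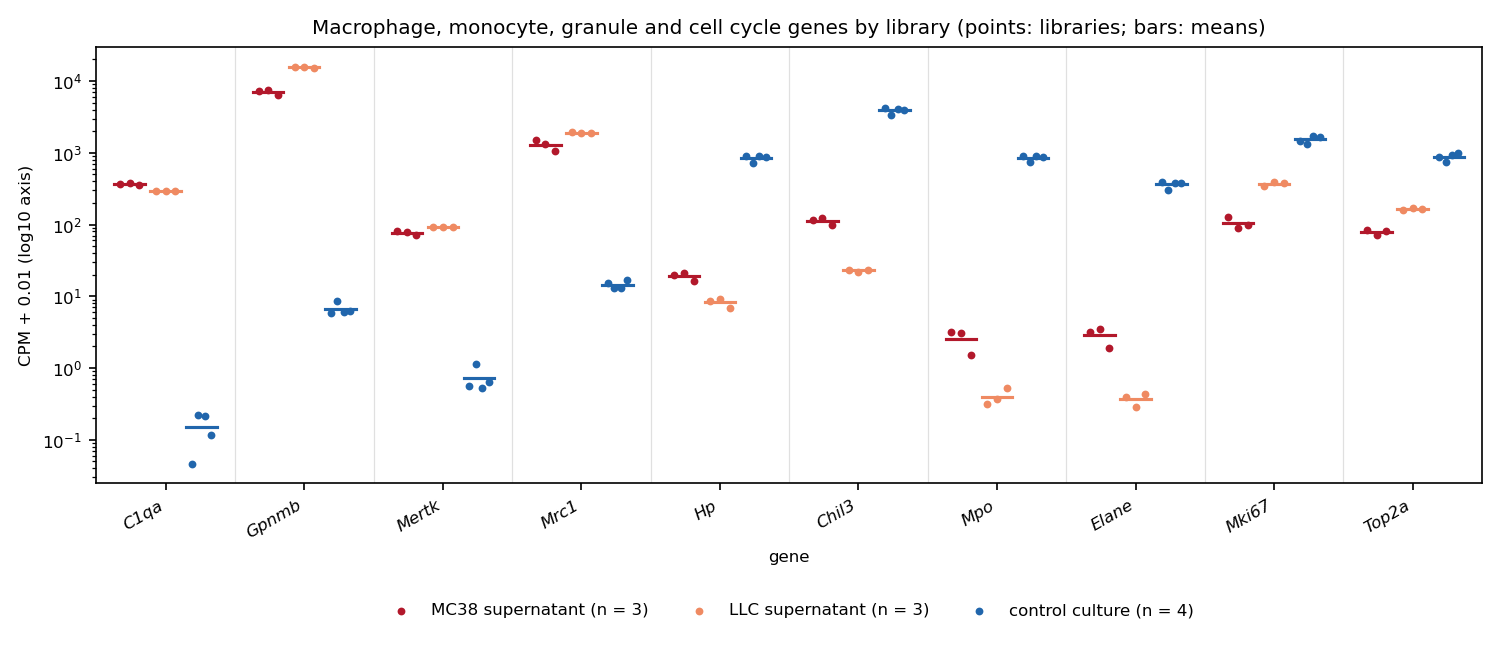
CPM (log10 axis, each CPM plus 0.01) of macrophage, monocyte, granule and cell cycle genes in single libraries after MC38 supernatant (left), after LLC supernatant (middle) and in control culture (right), with bars at the group means. C1qa, Gpnmb, Mertk and Mrc1 are higher and Hp, Chil3, Mpo, Elane, Mki67 and Top2a lower after MC38 supernatant than in any control library.

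Most complement genes rose. Of 17 tested, C5ar1 left out because the labels name it, 13 rose and 1 fell (median 3.6), and over 8 libraries 13 rose and 2 fell. C3ar1, the receptor for C3a, was at 2535, 2531 and 2101 CPM after MC38 supernatant and 3.07, 3.04, 2.69 and 2.15 CPM in control cells. Cfb, factor B of the alternative pathway and an interferon target, was at 224 ± 17.4 CPM after MC38 supernatant, 1.21 ± 0.461 CPM with LLC supernatant and 5.40 ± 1.04 CPM in control cells. C3, on which all pathways converge, went the other way, at 53.7, 58.1 and 65.7 CPM after MC38 supernatant and 2987, 2591, 3004 and 2760.1 CPM in control cells (-5.58 ± 0.11).

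Chemokine genes rose in number and size. Of 21 tested, 19 rose and 1 fell (median 7.86, or 5.97 with genes at 0 counts in a group set to their bound), and 10 were higher and 2 lower after MC38 than after LLC supernatant. Ccl2, the main ligand of Ccr2, was at 1379, 1307 and 1127 CPM after MC38 supernatant, 486, 448 and 535 CPM with that of LLC and 4.79, 4.31, 6.31 and 6.24 CPM in control cells. Cxcl16 rose by 8.21 ± 0.15 and Ppbp, a neutrophil attractant of platelets, by 10.22 ± 0.14. Ccl8 had the largest difference between supernatants of the genes named by rule (8.37 ± 0.17, with 2.02 CPM with LLC supernatant). Ccl5 was at 3.53, 5.02 and 4.18 CPM after MC38 supernatant and had 1 count over the control libraries (ratio 362, 95% counting interval 64.5 to 14358). Ccl3 was at 61.7, 56.2 and 49.5 CPM after MC38 supernatant and 22.4, 30.8, 60.4 and 43.6 CPM in control cells and did not pass (0.50 ± 0.31, adjusted p = 0.176). Of 14 receptors other than C5ar1, 8 rose and 4 fell, beside 35.4% and 32.5% of all genes tested. Cmklr1 (6.61 ± 0.14) and Ccr1 (2.98 ± 0.10) rose, and Cxcr4, the marrow retention receptor, fell by 1.59 ± 0.09.

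Of 29 genes of alternative activation and tissue repair, 20 rose and 6 fell (median 2.83). Il10, the suppressive cytokine, was at 12.4, 12.6 and 9.85 CPM after MC38 supernatant and had no count in control cells, at least 329-fold higher. Stab1, a scavenger receptor, was at 1293 ± 139.6 CPM after MC38 supernatant, 4186 ± 68.8 CPM with LLC supernatant and 2.06 ± 0.335 CPM in control cells. Il4ra, the receptor for interleukins 4 and 13, rose by 3.37 ± 0.10. In the same list, Arg1 (11.79) and Mrc1 (6.48) rose, while Chil3 fell by 5.11 ± 0.12 and Clec7a by 3.85 ± 0.11. Among 18 genes of VEGF receptors and matrix remodelling, 15 rose and 2 fell. Adam8, a sheddase, was at 2140.0, 2236 and 1920.0 CPM after MC38 supernatant and 9.81, 9.40, 9.65 and 8.08 CPM in control cells, and the collagenase Ctsk rose by 8.46 ± 0.19, Nrp2 by 3.93 ± 0.07 and urokinase, Plau, by 2.95 ± 0.09. Kdr, a VEGF receptor, was at 138, 143 and 121 CPM after MC38 supernatant and 0.0732, 10.8, 0 and 0 CPM in control cells, so the one control library with a higher value was that with muscle actin and epithelial transcripts (5.88 over all libraries). Endothelial markers (7 genes, Kdr among them) summed to 180 to 216 CPM after MC38 supernatant and 20.7 to 30.7 CPM in control cells. Vwf, von Willebrand factor, was at 15.9, 17.3 and 12.2 CPM after MC38 supernatant and 0.878, 0.353, 1.17 and 1.05 CPM in control cells, and the endothelial cadherin Cdh5 at 5.02, 5.79 and 67.4 CPM after MC38 supernatant and 0.22, 0.353, 0.201 and 0.157 CPM in control cells. Pecam1 was at 20.9, 20.4 and 15.3 CPM after MC38 supernatant and 22.1, 19.2, 21 and 19.5 CPM in control cells, while Tek, Emcn and Cldn5 reached at most 0.455 CPM in any of the 7 libraries. The part of endothelial transcripts in the values of Kdr was not tested. Sparc changed direction without the 2 libraries that hold transcripts of other tissues, at 6.13 over all libraries and -1.62 over 8 libraries.

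Glycolysis and hypoxia-linked genes rose with either supernatant. Of 35, 30 rose and 3 fell after MC38 supernatant (median 1.72), beside 30 and 1 after LLC supernatant, and MC38 was above LLC supernatant in 1 and below it in 19. Ldha, lactate dehydrogenase, was at 1616, 1695 and 1579 CPM after MC38 supernatant and 242, 243, 249 and 218 CPM in control cells. Tpi1 (2.80 ± 0.06), Pdk1, which closes pyruvate off from mitochondria (3.79 ± 0.10), Pfkl (2.09 ± 0.05), the glucose transporter Slc2a1 (2.69 ± 0.08) and the oxygen sensor Egln3 (5.14 ± 0.15) rose. Egln3 was higher after LLC supernatant, at 242 CPM, against 78.9 CPM after MC38 supernatant (-1.62 ± 0.13). Hk2 fell by 0.40 ± 0.07, Ndrg1 by 0.68 ± 0.06 and Pfkfb4 by 0.78 ± 0.08.

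Cholesterol genes lay between control and LLC supernatant. Of 24 synthesis and uptake genes 22 rose and 0 fell against control (median 1.09), and 23 were lower after MC38 than after LLC supernatant and 0 higher. Sqle, squalene epoxidase, was at 80.4, 73.3 and 81.3 CPM after MC38 supernatant, 182, 182 and 179.5 CPM with LLC supernatant and 10.3, 11.7, 10.8 and 12.1 CPM in control cells, without overlap of any group. Lss rose by 2.48 ± 0.12 and Fdps by 1.14 ± 0.05, and Mvd and Ebp were at -0.07 and -0.18 without passing. Of 31 genes of efflux and lipid handling 23 rose and 4 fell. Abca1, the cholesterol exporter, was at 351, 339.6 and 371 CPM after MC38 supernatant and 5.6, 13.6, 7.08 and 4.77 CPM in control cells, and Ch25h, the 25-hydroxylase that interferons induce, had 6.47, 4.89 and 7.20 CPM after MC38 supernatant and no count in control cells, at least 177-fold higher. Fabp5 (3.93 ± 0.08), Apoe (3.19 ± 0.10) and the lipid droplet gene Plin2 (2.33 ± 0.07) rose, and Cpt1a and Acsl1, which feed fatty acid oxidation, fell by 1.19 ± 0.07 and 1.17 ± 0.07. Pparg, a fat cell regulator, did not pass over all libraries (1.10) and stood at 3.98 over 8 libraries, with 33.1, 34.0 and 28.5 CPM after MC38 supernatant and 2.45, 54.3, 1.97 and 1.99 CPM in control cells.

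Proliferation genes were low after MC38 supernatant. Of 50 cell cycle and replication genes 44 fell and 3 rose (32.5% of all genes fell), with a median of -2.64, and 39 were lower and 3 higher than after LLC supernatant. Mki67, expressed in dividing cells, was at 129, 89.7 and 98.3 CPM after MC38 supernatant, 343, 386 and 383 CPM with LLC supernatant and 1478, 1334, 1731 and 1681 CPM in control cells. Top2a, the topoisomerase of dividing cells, was at 85.0, 71.6 and 81.5 CPM after MC38 supernatant and 880.2, 739, 935 and 985 CPM in control cells. Hmgb2, Stmn1, the mitotic factor Foxm1, Bub1b and Mybl2 fell by 4.30 ± 0.11, 3.12 ± 0.08, 3.69 ± 0.10, 3.24 ± 0.09 and 2.84 ± 0.08. The 3 rises were Cdkn1a, the inhibitor p21 (3.92 ± 0.12), and the cyclins Ccnd1 and Ccnd2. Cdkn1a was at 403, 414 and 431 CPM after MC38 supernatant and 24.5, 22.4, 31.1 and 32.0 CPM in control cells. Ccnd2 was at 83.9, 89.2 and 378 CPM after MC38 supernatant and 4.10, 2.55, 3.22 and 3.57 CPM in control cells (5.75, or 4.60 over 8 libraries). Ccnd1 was at 128, 129 and 277 CPM after MC38 supernatant and 0.842, 23.9, 0.643 and 0.472 CPM in control cells (4.92, or 7.59 over 8 libraries). Both cyclins were highest in the MC38 supernatant library with connective tissue transcripts. Pcna, E2f1 and Cdk4 were at 0.03, 0.14 and 0.13 without passing.

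Granule genes of promyelocytes and neutrophils fell in the same libraries. Of 24, 19 fell and 3 rose (median -3.20), and 19 were higher and 2 lower after MC38 than after LLC supernatant. Elane, neutrophil elastase, was at 3.12, 3.53 and 1.90 CPM after MC38 supernatant, 0.389, 0.277 and 0.427 CPM with that of LLC and 387, 303, 384 and 378 CPM in control cells. Ctsg (-7.48 ± 0.18), Cd177 (-5.91 ± 0.15) and Fcnb (-6.00 ± 0.19) fell, and S100a8 was at 30.4 ± 5.25 CPM after MC38 supernatant and 340.0 ± 43.8 CPM in control cells. Among the rises were the secreted proteases Mmp8, at 1555 ± 156 CPM after MC38 supernatant and 204 ± 24.9 CPM in control cells, and Mmp9 (2.83). Retnlg also rose (2.19), but its call was lost in 4 of the fits without 1 library. Markers of stem and progenitor cells (9 genes, among them Mpo, Elane, Prtn3 and Ctsg of the granule list) moved with the granule and cell cycle genes: they summed to 39.9 to 41.6 CPM after MC38 supernatant and 1407 to 1758 CPM in control cells. Of the 9, 8 were lower in every MC38 supernatant library than in any control library, and Cd34 was higher (65.8% of all genes tested did not overlap). Myb, a regulator of progenitors, was at 0.272, 0.181 and 0.455 CPM after MC38 supernatant and 48.2, 35.6, 45.1 and 39.5 CPM in control cells. The part of progenitor cells in these differences was not tested.

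**Figure D4:**
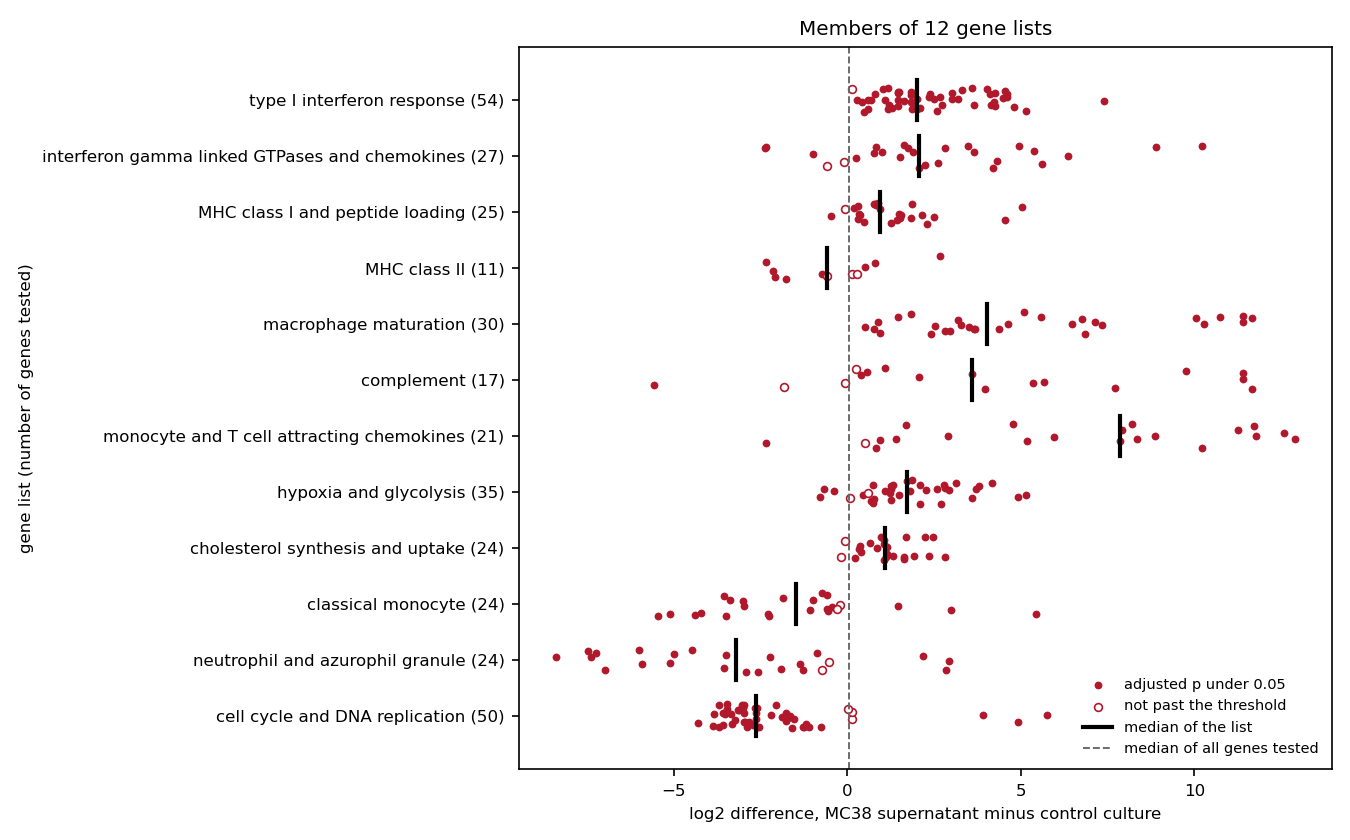
Log2 difference of MC38 supernatant minus control for each tested member of 12 gene lists, 1 point per gene (filled where the adjusted p is under 0.05), C5ar1 left out, with a bar at the list's median and a dashed line at the median of all genes tested. Type I interferon, macrophage, chemokine, glycolysis and cholesterol genes lie mostly above 0, and cell cycle, granule and classical monocyte genes mostly below it.

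Of 27 NF-kappaB and acute inflammation genes 15 rose and 9 fell (median 1.12), beside 35.4% and 32.5% of all genes tested. The secreted products Il1b (2.01 ± 0.29) and Tnf (0.90 ± 0.11) and the brakes Ier3 (5.77 ± 0.20) and Tnfaip3 (1.49 ± 0.09) rose, while Nfkb1, a subunit of the factor itself, fell by 1.59 ± 0.07. Of 27 immediate early genes 9 rose and 9 fell, shares near those of all genes tested (35.4% and 32.5%). Fos was at 179, 97.0 and 96.7 CPM after MC38 supernatant and 702, 906, 1517 and 1192 CPM in control cells (-3.12 ± 0.61), and Egr2 at 7.74, 7.28 and 9.81 CPM after MC38 supernatant and 0.256, 0.0707, 0.523 and 0.210 CPM in control cells (4.86 ± 0.39). Of 26 costimulation and checkpoint genes 15 rose and 9 fell, beside the same shares of all genes. Havcr2, which encodes TIM-3 (4.12 ± 0.12), Tnfsf9 (3.59 ± 0.12), Lgals9 (1.91 ± 0.07) and Cd80 (2.25 ± 0.23) rose, and Cd86 fell by 0.70 ± 0.11 and Vsir, which encodes VISTA, by 1.10 ± 0.08. Tnfsf10, the death ligand TRAIL and an interferon target, rose by 2.07 ± 0.18.

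Of 21 genes of colony stimulating factor signalling 9 rose and 8 fell, beside the same shares of all genes. Csf1r was at 1495 ± 109 CPM after MC38 supernatant and 882 ± 65.4 CPM in control cells, and Csf2ra, the receptor for GM-CSF, at 92.0 ± 12.3 CPM after MC38 supernatant and 363 ± 68.1 CPM in control cells. Socs3 (4.04 ± 0.23) and the survival gene Bcl2a1d (4.95 ± 0.20) rose and Csf3r fell by 1.36 ± 0.08. Of 22 integrin and adhesion genes 11 rose and 8 fell, beside 35.4% and 32.5% of all genes tested. Itgb5 (2.91 ± 0.07), Itgav (2.46 ± 0.08) and Itga5 (1.29 ± 0.07) rose, and Itga4 fell by 2.12 ± 0.15. Of 24 genes of oxidative stress and the unfolded protein response 11 rose and 2 fell, and 11 did not pass, while 17 rose without control culture replicate 2. Hmox1, heme oxygenase, was at 916 ± 50.2 CPM after MC38 supernatant and 76.4 ± 6.86 CPM in control cells, Srxn1 rose by 4.34 ± 0.09, and Herpud1 fell by 1.98 ± 0.14. In the Ly6 family, Ly6a left out, 2 of 7 rose and 3 fell, beside the same shares of all genes. Ly6e rose by 0.53 ± 0.08 and Ly6i fell by 2.62 ± 0.15.

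Monocytes of MC38 tumors against spleen monocytes share no library with the culture. There 9258 of 13200 genes were called (70.1%), 4428 higher in tumor monocytes (33.5%) and 4830 lower (36.6%). Of 12294 genes tested in both settings, 2443 were higher in both, which is 56.0% of the 4359 that rose in culture and 57.6% of the 4243 that were higher in tumors. Among all 12294 genes, 34.5% were higher and 35.7% lower in tumor monocytes. A further 2101 genes were lower in both (52.3% of those that fell in culture), and 865 rose in culture and were lower in tumors. Spleen libraries 1, 2 and 3 hold transcripts of fat cells, with 5350.2, 5025 and 8654 CPM of 7 fat cell markers, against 2.91 CPM in spleen library 4. With spleen library 4 alone as the counterpart, assumed to vary like the other groups, 7333 of 13802 genes were called (53.1%), and 2240 genes were higher in both (50.9% of those that rose in culture), 2061 lower in both and 468 higher in culture and lower in tumors.

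Interferon genes were higher in both settings, and some lists were not. All 54 type I interferon genes tested were higher in tumor monocytes (33.5% of all genes), with Isg15 at 1378, 1392, 1336 and 1477 CPM in tumor monocytes and 59.7, 37.1, 34.1 and 47.3 CPM in spleen monocytes (4.97 ± 0.32). Of 27 interferon gamma linked genes 26 were higher in tumor monocytes, among them Cxcl9, at 394 ± 93.4 CPM in tumor and 20.1 ± 3.26 CPM in spleen monocytes (SD, n = 4 each), and at most 1.10 CPM in the 7 cultured libraries. H2-Aa was at 2922 ± 469 CPM in tumor and 594 ± 92.6 CPM in spleen monocytes (2.30 ± 0.17), and 9 of 11 MHC class II genes were higher in tumors. Cell cycle genes, of which 44 of 50 fell in culture, were higher in 31 and lower in 7 in tumor monocytes, or 16 (27.4% of all genes) and 11 (25.8%) with spleen library 4 alone. Cholesterol synthesis genes, 22 of 24 higher in culture, were higher in 4 and lower in 15 in tumor monocytes (2 and 12 with spleen library 4 alone). Sqle was at 11.8 ± 1.09 CPM in tumor and 18.4 ± 1.91 CPM in spleen monocytes. Immediate early genes were higher in 25 of 27 in tumor monocytes, with Fos at 3795 ± 64.1 CPM in tumor and 231 ± 94.1 CPM in spleen monocytes. Ccl8 was at 13.4, 16.5, 12.8 and 14.2 CPM in tumor monocytes and 4.06, 3.67, 5.07 and 0.331 CPM in spleen monocytes, and Ccl7 at 518 ± 81.8 CPM in tumor and 4.47 ± 5.18 CPM in spleen monocytes. The difference between culture and mice was not tested in a single model, because the settings were fitted separately.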

How the data were processed

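RNA-seq libraries of cultured monocytes and of monocytes from mice were analysed. Per the labels' protocols, RNA was extracted with TRIzol and 100 ng of each sample was made into libraries with the KAPA stranded mRNA kit (14 PCR cycles). The values deposited by the authors are estimated counts for each Entrez gene in each library, and 14.6% of them are not whole. Base calling used CASAVA 1.8.2 and the genome was GRCm38 (mm10), per the submitters' processing notes, with an aligner and counter not given in the sources used here. Counts were rounded to whole numbers, which the planned test for whole counts had not foreseen. RefSeq (GRCm38.p6) named 24375 of 24475 gene IDs, and the rest held 1.43% of the counts of all libraries together.

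Genes were filtered with filterByExpr, scaled by TMM and tested with edgeR 4.0.16 (R 4.3.3; robust quasi-likelihood F-test, Benjamini-Hochberg adjusted p under 0.05) over the 10 cultured libraries, which share 1 estimate of the spread. All 34 columns of the table belong to samples of the series. CPM uses the TMM-scaled library sizes. The SE is the log2 difference divided by the square root of F. The comparison in mice was fitted over all 24 libraries from mice. Counting intervals are exact (95%), cover counting error only, and the floor for a group at 0 is 3 counts over the group. No 2 replicates agreed within sampling noise (lowest chi-square per gene 4.90). The test was also run on simulated counts in which far fewer genes changed than here, so that check does not cover a change this wide.

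The gene lists, markers and comparisons were chosen with earlier results of these data known. The text names 216 of the genes tested, of which 149 are among the 254 that a rule names or allows: the 12 largest rises and falls with at least 10 CPM, no overlap of libraries and the same call over 8 libraries, the 6 most abundant genes per direction with a change of at least 2-fold, up to 5 members of each list by adjusted p, list members that did not pass, tissue markers above 10 CPM, the genes called only over 8 libraries and without overlap of libraries that had the largest change, and the largest differences from LLC supernatant. The other 67 were chosen after their values were seen. Some genes are not reported here. Alternatives were other scalings (RLE, upper quartile), other filters, DESeq2 1.42.0, the 7 libraries alone, the replicate number as a block, and leaving out libraries.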

Additional observations from a re-analysis of the deposited data

Results flagged for a closer look

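Behind the named genes were 230 groups of 4 libraries. In these, 33 values had a gap to the nearest library above Dixon's critical value at the 95% level. Of the 33, 30 were in control culture replicate 2. Chance flags about 1 in 20 groups at that level. Some genes, such as Dusp4, Igf2bp2 and Slc6a8, were named because their calls depend on libraries that stand apart. The count of flags therefore cannot be set against that rate. Groups of 3 were not tested. Control culture replicate 2, which also held muscle actin, connective tissue and epithelial transcripts, was the high library for 12 genes. It held Axl at 26.4 CPM (others 19.9 to 20.7 CPM), Ccnd1 at 23.9 CPM (others 0.472 to 0.842 CPM), Col1a1 at 25.6 CPM (others 0.281 to 0.732 CPM) and Fth1 at 1777 CPM (others 449.6 to 464 CPM). High values were also found for Gpnmb at 8.70 CPM (others 5.82 to 6.24 CPM), Igf2bp2 at 50.8 CPM (others 0.402 to 0.892 CPM), Kdr at 10.8 CPM (others 0 to 0.0732 CPM) and Pf4 at 1.20 CPM (others 0.366 to 0.472 CPM). Dusp4 was at 9.33 CPM (others 0 to 0.0366 CPM). The remaining high values were Pparg at 54.3 CPM (others 1.97 to 2.45 CPM), Slc6a8 at 36.6 CPM (others 0.22 to 0.262 CPM) and Sparc at 12.8 CPM (others 0.844 to 1.83 CPM). 

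The same library was the low one for 18 genes, most of them by a modest margin. It had Actg1 at 3762 CPM (others 4224 to 4252 CPM), B2m at 916 CPM (others 1163 to 1195 CPM), Bub1b at 206 CPM (others 243 to 245 CPM) and Ccr2 at 1118 CPM (others 1408 to 1452 CPM). Low values were also found for Ctss at 775 CPM (others 959 to 964 CPM), Ebp at 45.0 CPM (others 58.7 to 60.6 CPM), Elane at 303 CPM (others 378 to 387 CPM) and Fcnb at 84.5 CPM (others 102 to 105 CPM). Also low were H2-DMa at 106 CPM (others 132 to 133 CPM), H2-K1 at 451 CPM (others 569 to 591 CPM), Hmox1 at 66.2 CPM (others 78.4 to 80.7 CPM) and Ifit3 at 18.3 CPM (others 28.6 to 28.8 CPM). Further low values were Irf7 at 89.9 CPM (others 117 to 120.3 CPM), Klf4 at 282 CPM (others 371 to 380.3 CPM), Ly6c2 at 1520.5 CPM (others 1884 to 1887 CPM) and Mmp8 at 167 CPM (others 214 to 218 CPM). The last were Pcna at 197 CPM (others 242 to 249.7 CPM) and Tap1 at 130.4 CPM (others 165 to 168 CPM). Part of every CPM in that library is taken by transcripts of other tissues, and the part of this in the low values was not tested. Ccl5 was at 0.0525 CPM in control culture replicate 4, which is 1 count, and at 0 in the other 3 of its group. Ly6c1 was at 28.5 CPM in control culture replicate 4, against 24 to 24.8 CPM in the other 3 of its group. Ccl7 was at 639 CPM in the second library of MC38 tumor monocytes, against 461 to 491 CPM in the other 3 of its group.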

How the results depend on the processing

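Of 18 alternatives for MC38 supernatant against control culture, each kept the count of called genes within 1.5 times that reported, from 7557 with at least 5 CPM in 3 libraries to 9730 over 8 libraries, and DESeq2 called 8608. Leaving out 1 library at a time gave 7892 to 9268 calls, the highest without control culture replicate 2. The share of called genes that were higher lay between 49.7% and 55.8%, and the median log2 difference of all genes between -0.02 and 0.14. Between the supernatants, 3849 genes were higher and 3575 lower over 8 libraries, beside 2723 and 2332 over all 10, and the cause was not tested. RLE scaling gave 2303 higher and 2687 lower between the supernatants.

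Of 3855 values of named genes under these alternatives, 3759 kept direction and call, 57 lost the call, 31 gained it and 8 reversed. Without MC38 supernatant replicate 3 and control culture replicate 2, Sparc stood at -1.62, Col4a1 at -2.47, Pdgfrb at -2.04 and Tagln at -2.57. Without MC38 supernatant replicate 3 alone they were also below 0, so their rises rest on that library. Over the fits without 1 library, Sparc ranged from -3.37 to 7.72, Col4a1 from -2.79 to 6.30, Pdgfrb from -2.05 to 5.22 and Tagln from -2.31 to 8.48. Irf9 passed over the 7 libraries alone, over 8 libraries and without control culture replicate 1 (0.14 to 0.22), and Retnlg lost its call without MC38 supernatant replicate 1 or 2, LLC supernatant replicate 1 or control culture replicate 3 (1.99 to 2.20). Ido1 lost its call without MC38 supernatant replicate 2 (-2.23), and Ccl3 passed without control culture replicate 3 (0.81). Of 900 counts of list members, 18 moved by over 1.5 times, 17 of them counts of lower members of 5 or fewer.

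Deviations of same-numbered MC38 supernatant and control libraries correlated at 0.27, -0.36 and -0.34. Both negative values include a library with transcripts of other tissues (control culture replicate 2 or MC38 supernatant replicate 3). These correlations therefore cannot decide whether the replicate numbers pair the samples. With the replicate number as a block, 7788 genes were called (4033 higher, 3755 lower), 4235 differed between supernatants, 7920 between LLC supernatant and control, and 9213 in mice. The alternatives for LLC supernatant against control, and RLE scaling over 8 libraries (9722 calls), were chosen after seeing the data. Differences of genes at a few counts, such as Cxcl9 and Ido1, are limited by depth.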
